A study of Homo sapiens with 21 samples.

Results

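Argonaute clusters in 3' UTRs are short stretches of RNA that were crosslinked to Argonaute protein and that the authors' peak annotation places in the 3' untranslated region of a gene. They were taken as the rows with this annotation in 3 cluster lists made from HK-2 cells, an immortalized line of human kidney proximal tubule epithelium. There were 748 such clusters among the 56985 clusters of the AGO2 list from vehicle-treated cells, 530 among the 36812 of the AGO2 list from cyclosporine A-treated cells, and 196 among the 19306 of a list made with an antibody against all Argonautes. Together these were 1474 of 113103 clusters.

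All groups came from the same line, grown in serum-free keratinocyte medium with epidermal growth factor and bovine pituitary extract, and the labels name no further genetic change. The AGO2 lists pool 2 PAR-CLIP libraries each, from cells given 5 ug/mL cyclosporine A (CsA, a calcineurin inhibitor used as an immunosuppressant) or 0.1% ethanol as vehicle for 24 h. The all-Argonaute list comes from 1 library, for which no treatment is named. All 5 crosslinked samples had received 100 uM 4-thiouridine and 365 nm light at 0.15 J/cm2. Polyadenylated RNA and small RNA were sequenced from 4 vehicle and 4 CsA samples each after 48 h of treatment, so the clusters and the RNA levels are from different times. Each list is a single pooled measurement with no replicate, so that differences between lists are described with 95% Wilson intervals, which cover counting error only, and are not tested.

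Argonaute proteins carry microRNAs, which pair with messenger RNA mainly through the seed, bases 2 to 8 from the microRNA's 5′ end. In animals the paired sites that lower mRNA and protein lie mostly in 3' UTRs, where Argonaute recruits GW182 proteins, deadenylases and the decapping machinery. A site that matches the seed and is followed by an A opposite the first microRNA base is usually the more effective kind.

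The clusters below are a choice of those that held the complement of a seed of a microRNA family with at least 0.1% of vehicle counts, lay on the strand of their gene and had no stretch of 14 bases in common with a cluster at another place of their list. They are shown because in them a cluster, a seed match and a transcript on the right strand came together, and they were chosen after their values were seen. None of the 11 overlapped a cluster of another list, and their scores lay between the 3.55th percentile of their list (BACH1) and the 77.1st (DNAJA2). Each is printed 5′ to 3′ as the cluster lists give it, with the 7-base seed match in capitals.
CDKN1B, vehicle list, miR-221/222 site: aaaagcgttggATGTAGCattatg
CDK6, CsA list, miR-29 site: tccacaTGGTGCTctccatcttc
FOXO1, vehicle list, miR-27 site: taatACTGTGAtgggcctcat
SIK1, CsA list, miR-27 site: aaaACTGTGAactttctgcttcat
SFXN1, vehicle list, miR-30 site: aaaccatgtaccacTGTTTACatcatctg
HIPK3, vehicle list, miR-205 site: aaATGAAGGacttaattttccccacaag
DCP1A, vehicle list, miR-29 site: ggTGGTGCTgctcttcttttt
DNAJA2, vehicle list, miR-24 site: ccatccCTGAGCCtaaatcta
SRSF10, vehicle list, miR-22 site: ttatgGGCAGCTaccaatttg
PTPN1, vehicle list, miR-146 site: tctAGTTCTCaatcactgctcccccg
BACH1, CsA list, miR-24 site: ctgcatcCTGAGCCtag

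The microRNAs that carry these seeds are given from RefSeq, in RNA letters, with bases 2 to 8 in capitals.
hsa-miR-222-3p: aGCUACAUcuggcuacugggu
hsa-miR-29a-3p: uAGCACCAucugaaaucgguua
hsa-miR-27b-3p: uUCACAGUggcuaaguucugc
hsa-miR-30a-5p: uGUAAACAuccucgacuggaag
hsa-miR-205-5p: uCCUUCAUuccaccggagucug
hsa-miR-24-3p: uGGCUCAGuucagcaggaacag
hsa-miR-22-3p: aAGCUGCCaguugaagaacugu
hsa-miR-146b-5p: uGAGAACUgaauuccauaggcug
hsa-miR-155-5p: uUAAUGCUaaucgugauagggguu

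The CDKN1B cluster lay at chr12:12874151-12874174 on the plus strand of hg19 and the CDK6 cluster at chr7:92235731-92235753 on the minus strand. The FOXO1 cluster lay at chr13:41132744-41132764 on the minus strand, the SIK1 cluster at chr21:44836129-44836152 on the minus strand and the SFXN1 cluster at chr5:174954756-174954784 on the plus strand. All 11 clusters are annotated as 3' UTR in the deposited lists. CDKN1B, the cell cycle inhibitor p27, had an A after the seed match, as had SIK1, SFXN1, HIPK3, SRSF10 and PTPN1. In the same CDKN1B cluster the complement of the miR-155 seed overlapped the miR-221/222 match, as aaaagcgttggatgtAGCATTAtg.

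The mRNA libraries held 3965431 to 7041604 counts and the small RNA libraries 6664231 to 9184278. Of 18 proximal tubule markers, 8 had a vehicle mean of at least 1 CPM, the read count scaled to a common library total,, while the transporters SLC22A6 and SLC22A8 and the transcription factor HNF4A had no count in any library. All 8 markers of the line, which were keratins, cadherins, EPCAM and vimentin, were above that level. Of 16 markers of other kidney, endothelial, blood and stromal cell types 5 reached it and 7 had no count. The summed CPM of the tubule markers ranged from 1533 to 1664 in vehicle and from 1341 to 1395 with CsA. That of the 8 markers of the line ranged from 1593 to 1735 and from 1883 to 2080.4. That of the markers of other cell types ranged from 116 to 134 and from 60.7 to 71.4. Fewer cells that express a marker and less RNA per cell cannot be told apart in bulk samples. The part of these markers in the results was not tested.

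The 3' UTR held 1.31% of the vehicle clusters (95% interval 1.22 to 1.41%), 1.44% of the CsA clusters (1.32 to 1.57%) and 1.02% of the all-Argonaute clusters (0.883 to 1.17%). Introns held 42.4% of the vehicle clusters and intergenic sequence 46.9%, and coding or other exons 3.69%. The intervals of the AGO2 lists overlapped, and the difference in the 3' UTR share between vehicle and CsA was not tested. The 748 vehicle clusters lay in 708 genes and the 530 CsA clusters in 487 genes.

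A cluster can mark a gene's transcript only if it lies on the gene's strand. The strand was found for the genes of 606 vehicle clusters, and 383 of these, 63.2% (59.3 to 67.0%), were in sense. In CsA 293 of 425 were in sense, 68.9% (64.4 to 73.2%), and in the all-Argonaute list 90 of 157, 57.3% (49.5 to 64.8%). A list with no strand preference would give 50%, and intron clusters were at 54.0% in the vehicle list and 55.1% in the CsA list. Clusters in 5' UTRs were above those in 3' UTRs, at 76.2% (69.95 to 81.5%) and 73.3% (63.4 to 81.4%), with overlapping intervals in the CsA list. Exon clusters were near the 3' UTR, at 62.3% and 64.8%, and clusters at promoters were at 48.2% and 47.9%. So 223 vehicle and 132 CsA clusters annotated as 3' UTR lay opposite the annotated gene.

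**Figure D1:**
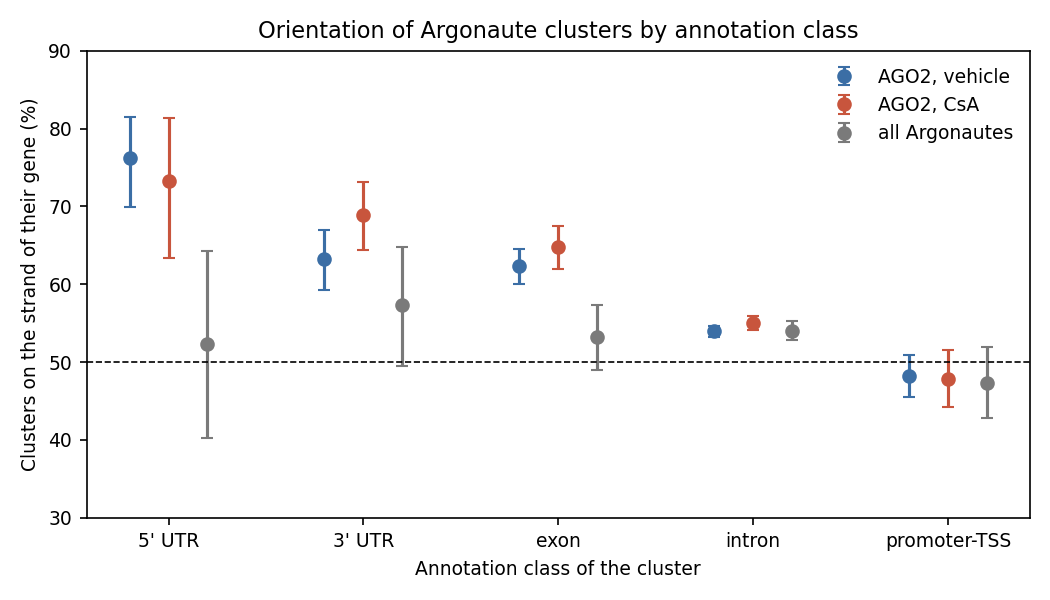
Share of clusters on the strand of their gene (per cent, y axis) by annotation class (x axis) in the 3 lists; points are shares of the clusters whose gene strand is known, bars are 95% Wilson intervals and the dashed line marks 50%. The 3' UTR points of the AGO2 lists, 63.2% and 68.9%, lie above those of introns, 54.0% and 55.1%, and below those of 5' UTRs, 76.2% and 73.3%.

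RNase T1, used to trim the RNA, cuts after G, and 35.8% of sense 3' UTR clusters of the vehicle list ended in G (31.1 to 40.7%), against 25.5% of intergenic clusters (24.96 to 26.0%). With CsA these shares were 31.4% (26.4 to 36.9%) and 25.6%. Antisense 3' UTR clusters ended in G in 30.9% of cases in the vehicle list and 30.3% in the CsA list, with intervals that overlapped those of the sense clusters. Sense exon clusters ended in G in 32.7% of cases in the vehicle list and 35.7% in the CsA list, so this was not particular to 3' UTRs.

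Of the 3' UTR clusters, 170 recurred between the AGO2 lists, meaning that they overlapped a cluster of the other list by at least 1 base on the same strand. This was 22.7% of the vehicle clusters (19.9 to 25.9%) and 32.1% of the CsA clusters. Intron clusters recurred more often, at 31.8% and 48.9%, and exon clusters about as often, at 21.4% and 32.5%. Within the 3' UTR the recurrent clusters were the ones with less strand preference. In the vehicle list 18.3% of sense clusters recurred (14.7 to 22.5%) and 28.7% of antisense clusters (23.2 to 35.0%). Of the CsA clusters, 23.9% of sense and 48.5% of antisense ones recurred. Put the other way, 52.2% of the recurrent clusters with a known gene strand were in sense, while clusters found in the vehicle list alone were 66.5% in sense and those in the CsA list alone 77.1%. The 61 vehicle clusters that overlapped both other lists were in sense in 25 of 50 cases.

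Score went with recurrence. The score has no stated unit and was used for rank within its list. Of vehicle 3' UTR clusters up to the 25th percentile of their list's scores 6.99% recurred in the CsA list, and of those above the 90th percentile 73.5% did, with 36 of 49. The sense share did not follow the score in this way. It was 70.2% (63.3 to 76.2%) for vehicle clusters between the 50th and 75th percentile and 48.8% (34.3 to 63.5%) above the 90th. For CsA clusters it was 44.9% (31.9 to 58.7%) between the 75th and 90th percentile and 68.2% (47.3 to 83.6%) above.

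**Figure D2:**
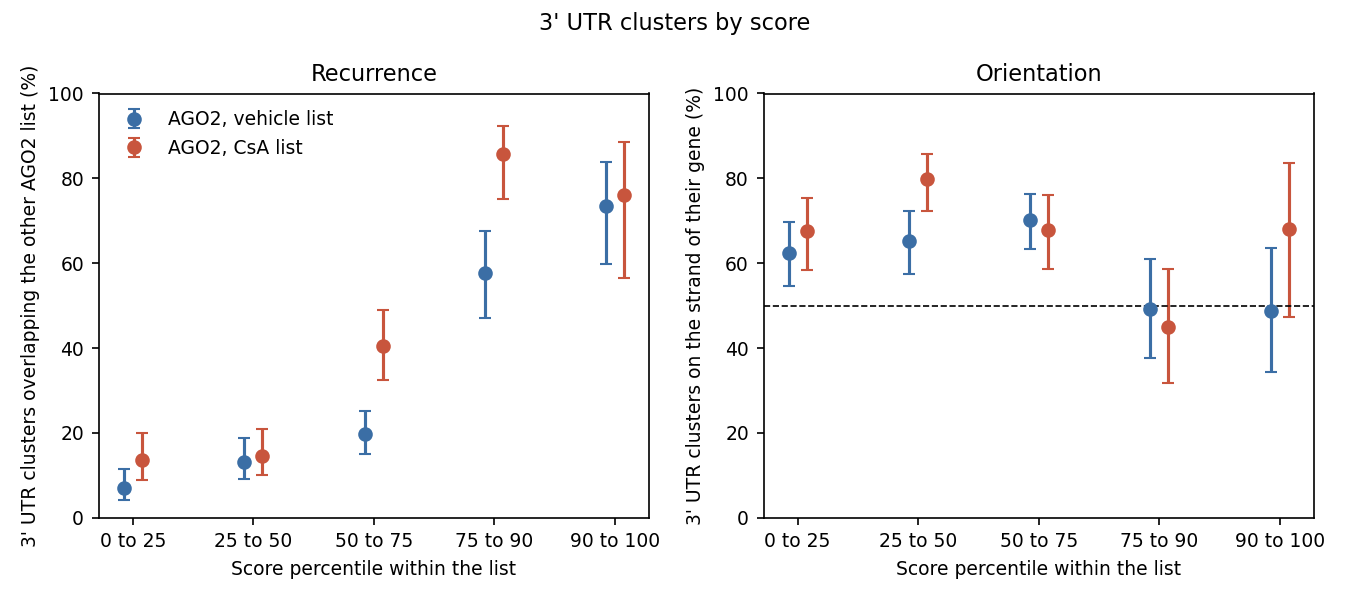
Left, 3' UTR clusters that overlap the other AGO2 list (per cent); right, 3' UTR clusters on the strand of their gene (per cent); both by score percentile within the list (x axis), with 95% Wilson intervals. Recurrence of vehicle clusters goes from 6.99% to 73.5%, while their sense share is 48.8% above the 90th percentile.

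Many of the clusters shared a part of their sequence with a cluster at another place of their list. The lists differ in size, so their shares are not set against each other. In the vehicle list 236 of the 748 3' UTR clusters, 31.6%, held a stretch of 14 bases that was also in a cluster at another place of the list, and in the CsA list 134 of 530 did, 25.3%. This was less than among intron clusters, at 39.1% and 33.1%, and more than among exon clusters, at 26.6% and 18.7%. In sense 3' UTR clusters of the CsA list it was 19.1% (15.0 to 24.0%) and in antisense ones 33.3% (25.9 to 41.8%). Such clusters also recurred more. Sense vehicle clusters with a stretch found elsewhere recurred in 35.2% of cases (26.8 to 44.8%), and those without in 11.9% (8.58 to 16.2%). Without them the vehicle list kept 512 3' UTR clusters, of which 65.4% of those with a known strand were in sense and 15.4% recurred.

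Genes with many and with few mRNA reads were among the highest scores. The 8 genes with the highest vehicle scores had a median of 10.2 CPM, those of the CsA list 26.3 CPM and those of the all-Argonaute list 43.7 CPM, beside 29.6 CPM over all genes tested. They included 2, 1 and 1 genes under 1 CPM. ADRB1, a beta-adrenergic receptor, had the highest-scoring 3' UTR cluster in all 3 lists, with 10.0% of the summed 3' UTR score of the vehicle list, 15.8% of the CsA list and 18.3% of the all-Argonaute list. Its mRNA was at 4.67, 4.41, 5.49 and 4.28 CPM in the vehicle libraries and 5.13, 4.14, 5.97 and 4.08 CPM with CsA, and the groups overlapped. The sense ADRB1 cluster at chr10:115805664-115805687 held a stretch also found at 2 other places of the vehicle list. Read by eye, several high-scoring clusters resemble ribosomal RNA, among them those of ADRB1 and TCHP and the highest-scoring one of FFAR4. The TCHP cluster is counted among the miR-205 seed matches below. No genome was used here, so whether the reads of such clusters come from these genes was not tested. FFAR4, a receptor for long-chain fatty acids, and GRIK4, a kainate receptor subunit, had antisense clusters among the top 8 genes of the vehicle list and no mRNA count in any library.

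GUCY1A2, a subunit of soluble guanylate cyclase, was second in the vehicle list with an antisense cluster, and FBLN1, the matrix protein fibulin, second in the CsA list, also antisense. Neither gene had a 3' UTR cluster in another list. Of the top 8 vehicle clusters 5 were antisense and 3 sense. SMURF2, a ubiquitin ligase of TGF-beta signalling, ZYG11A and ADRB1 were the sense ones. INHBA, which encodes an activin subunit, RXRA, the retinoid X receptor alpha, DDAH1, which degrades methylarginines, and SLC25A36, a mitochondrial nucleotide carrier, were sense members of the CsA top 8 that also had an overlapping cluster in the vehicle list. The INHBA cluster shared a stretch with 8 other places of the CsA list and the DDAH1 cluster with 5, and the SMURF2 vehicle cluster with 8, whereas the SLC25A36 cluster shared none.

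Few genes had several clusters. In the vehicle list 670 genes had 1, 37 had 2 and SCD, the stearoyl-CoA desaturase that makes monounsaturated fatty acids, had 4, all sense, within chr10:102121423-102123568. With CsA it had 2 sense clusters at other positions of the same UTR. CDK6, a cell cycle kinase, had 4 sense clusters in the CsA list and a single antisense one in the vehicle list. These clusters had low to middling scores. The 4 SCD vehicle clusters lay between the 22.4th and 55.8th percentile of their list, and the 4 CDK6 clusters of the CsA list between the 29.3rd and 54.1st.

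Seed matches had a similar share in 3' UTR clusters and elsewhere, with intervals that overlapped. The 33 seed families with at least 0.1% of the vehicle microRNA counts were searched, each by the 7-letter complement of bases 2 to 8, on the cluster strand. A match was in 37 of 748 vehicle 3' UTR clusters, 4.95% (3.61 to 6.74%), against 4.68% of intron, 4.55% of intergenic and 4.19% of exon clusters. Of the CsA clusters 22 of 530 held one, 4.15% (2.76 to 6.21%), against 4.48% of intron clusters. Restricting to sense clusters gave 4.96% in the vehicle list and 4.10% in the CsA list, and antisense clusters were at 3.59% and 3.03%.

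With the A after the match required, 15 vehicle 3' UTR clusters held a site, 2.01% (1.22 to 3.28%), and the intron clusters were at 0.998% (0.880 to 1.13%), an interval that did not overlap. Exon clusters were at 0.904% (0.579 to 1.41%), an interval that overlapped that of the 3' UTR. For CsA the same shares were 1.13% (0.520 to 2.45%) and 1.05%, with overlapping intervals. Sense and antisense 3' UTR clusters of the vehicle list were at 1.83% and 1.79%, with intervals that reached from 0.888 to 3.72% and from 0.700 to 4.52%.

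Matches did not follow the abundance of the families. The 10 most counted families had a match in 12 of the 37 matched vehicle clusters, 1.60% of the 3' UTR clusters beside 1.51% of intron clusters. Of these clusters, those in STK24, CNGB3 and TCHP overlapped a cluster of the CsA list. The STK24 cluster was sense and shared a 14-base stretch with 8 other places. The TCHP cluster was antisense and shared one with 4 other places. CNGB3 had an unmatched strand, a stretch shared with 1 other place and no mRNA count in any library. The miR-21 family made up 58.8% of the vehicle microRNA counts and its 7-base match was in 1 vehicle 3' UTR cluster, in DUSP5, a phosphatase that switches off ERK, as ttcggggcATAAGCTgatcaccg; the gene's strand was not matched. The let-7, miR-26, miR-92, miR-200b and miR-181 families had no match in the 3' UTR clusters of either AGO2 list, and the intron clusters of the vehicle list held these matches at 0.0166%, 0.0911%, 0.0952%, 0.0621% and 0.277%. Taking 3 counts as the limit that a count of 0 allows, 0 of 748 vehicle clusters allows a share of up to 0.401%. The miR-205 family had 6 vehicle clusters, 0.802% beside 0.414% of intron clusters. Of these 6, 2 were antisense, and those in TBC1D12, TCHP and ATP2B3 shared a 14-base stretch with other places of the list. The miR-27 family had 5, 0.668% beside 0.5425%, and the miR-24 family 5, 0.668% beside 0.0952%. The miR-221/222, miR-29 and miR-22 families had 3 each, 0.401% beside 0.137%, 0.311% and 0.108% of intron clusters. Of the miR-27, miR-221/222 and miR-22 clusters, those in MESDC1, DPY19L4, RABGAP1, FAM35A, STK24 and TAGLN2 also shared a 14-base stretch. The miR-24 and miR-29 ones did not. In the CsA list miR-205 was at 0.189% beside 0.331% of intron clusters, miR-27 at 0.566% beside 0.522% and miR-24 at 0.189% beside 0.0956%. There miR-221/222 was at 0.566% beside 0.1975%, miR-29 at 0.377% beside 0.312% and miR-22 at 0.377% beside 0.0828%. These counts are small and no test was made.

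Of the 33 families 7 had a leading member that passed the test between CsA and vehicle, where 11.3% of the 470 microRNAs tested did, 4.89% higher and 6.38% lower. Without vehicle replicate 3 the number of microRNAs that passed went from 53 to 29. Of the 7, miR-99b-5p and miR-191-5p did not pass in several alternatives and are not described further. miR-148a-3p had the largest rise, 0.68 ± 0.15 on the log2 scale (adjusted p = 0.00745); its match was in no vehicle 3' UTR cluster and in 1 CsA cluster, antisense to HIF1AN. miR-155 and miR-29 had matches in clusters printed above, and whether their changes act on those genes was not tested. miR-155-5p was at 5857, 7082, 6983 and 6379 CPM in vehicle and at 9926, 8906, 8732 and 9360 CPM with CsA, and the groups did not overlap. Its log2 fold change was 0.49 ± 0.10 (SE, n = 4 per group), with adjusted p = 0.00564 by edgeR's quasi-likelihood test with Benjamini-Hochberg adjustment. miR-29a-3p had a log2 fold change of 0.45 ± 0.10 (adjusted p = 0.00976, same test). The miR-29 family as a whole was at 4344 to 5340 CPM in vehicle and 6146 to 7043 CPM with CsA.

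miR-7-5p fell most among the 7, by 1.02 ± 0.11 on the log2 scale (adjusted p = 9.81e-06), from 4880, 5330, 5735 and 4991 CPM to 2316, 2369, 2637 and 2998 CPM. Its match was in 1 sense vehicle cluster, in TNFAIP2, a gene induced by tumour necrosis factor. That cluster also held a 14-base stretch found at 2 other places. TNFAIP2 mRNA was at 663, 669, 666 and 606 CPM in vehicle and 174, 189, 190 and 197 CPM with CsA and fell by 1.799 ± 0.06 (adjusted p = 1.30e-33). miR-10a-5p fell by 0.47 ± 0.11 (adjusted p = 0.00976) and had sense matches in the CsA clusters of GSK3A, a glycogen synthase kinase, and RAPGEF2, a RAP exchange factor. miR-222-3p was at a log2 fold change of 0.31 ± 0.12 with adjusted p = 0.120, and did not pass.

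Genes with more mRNA reads had 3' UTR clusters more often. CPM is not divided by transcript length, which the files do not give, so this compares read numbers and not molecules. Of genes under 1 CPM in vehicle 1.67% had a 3' UTR cluster in an AGO2 list (1.43 to 1.95%), of those at 1 to 10 CPM 2.97%, at 10 to 100 CPM 6.06% and at 100 CPM or more 9.71% (8.52 to 11.03%). Genes with a sense cluster went from 0.631% to 6.21% of their bin and genes with antisense clusters alone from 0.631% to 1.87%. The sense share among vehicle clusters was 44.4% (34.6 to 54.7%) for genes under 1 CPM and 72.9% (65.0 to 79.5%) for genes at 100 CPM or more. Among CsA clusters it was 45.8% and 80.4%.

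**Figure D3:**
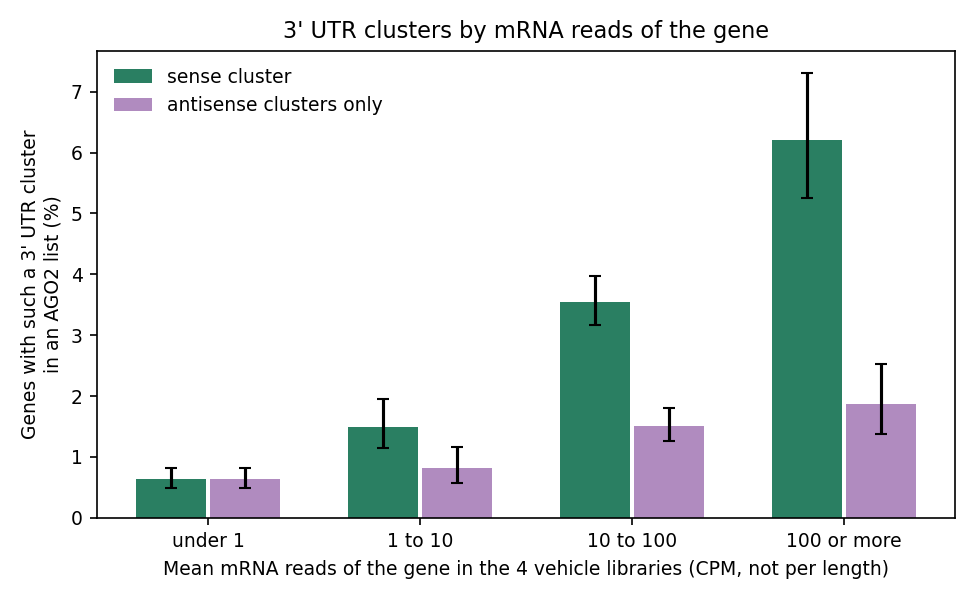
Genes with a sense 3' UTR cluster or with antisense clusters alone in an AGO2 list (per cent of the genes of the bin, y axis) by mean vehicle CPM (x axis); error bars are 95% Wilson intervals. Sense clusters go from 0.631% to 6.21% of genes, antisense ones from 0.631% to 1.87%.

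CsA changed most of the transcriptome, which is the background for the members. Of 12855 genes tested 66.9% passed the test at an adjusted p under 0.05, 33.3% higher and 33.5% lower, with a median log2 fold change of -0.0022. Among the 962 genes with a row in the mRNA table and a 3' UTR cluster in either AGO2 list, 775 passed the filter on low counts. Of these 315 were higher with CsA (40.7%) and 249 lower (32.1%), with a median of 0.09; with upper-quartile scaling the order turned, to 274 higher and 289 lower. Genes with a sense cluster were higher in 205 of 457 cases (44.9%) and lower in 137 (29.98%), with a median of 0.14; with upper-quartile scaling 38.7% of them were higher, beside 28.4% of all genes. Genes with antisense clusters alone were higher in 66 of 185 cases (35.7%) and lower in 58 (31.4%), with a median of 0.04.

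The share of higher calls was also set beside the reads of the genes. At 1 to 10 CPM 21.35% of all genes were higher and 37.5% of those with a sense cluster, 15 of 40. At 10 to 100 CPM 36.1% of all genes were higher and 46.5% of those with a sense cluster, 132 of 284. At 100 CPM or more these were 37.6% and 43.6%. Genes with a sense cluster in the vehicle list and no 3' UTR cluster in the CsA list were higher in 97 of 217 cases (44.7%) and lower in 68. Those with a sense cluster in the CsA list and none in the vehicle list were higher in 64 of 139 (46.0%) and lower in 38. No test of these shares was made, and UTR length, which the files do not give, was not considered.

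**Figure D4:**
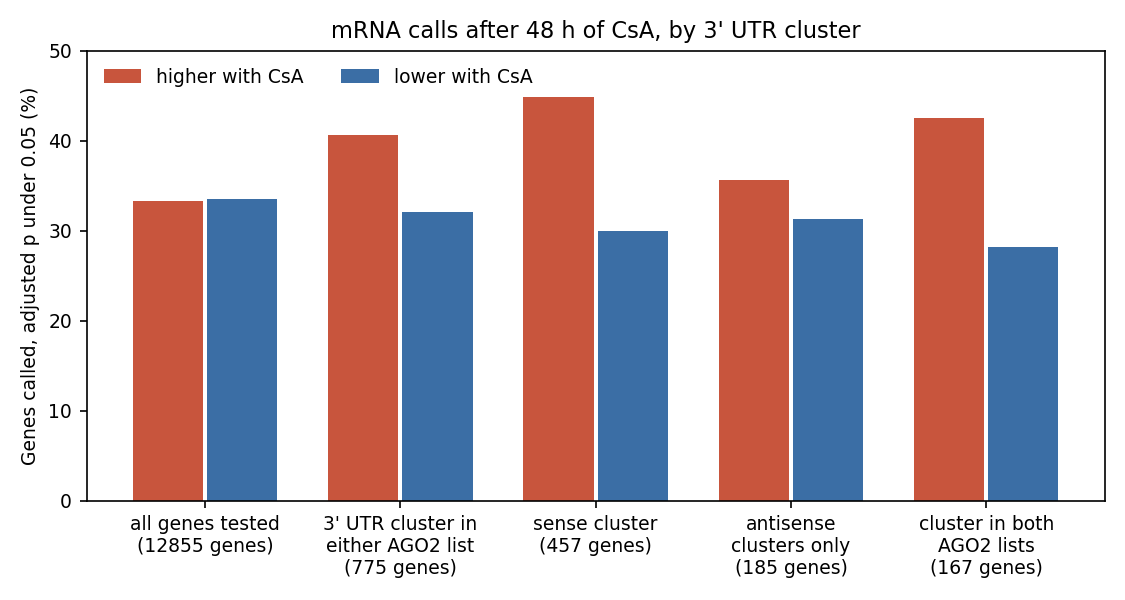
Genes called higher or lower after 48 h of CsA (per cent of the genes tested in each set, y axis) for all genes and for genes with 3' UTR clusters in AGO2 lists (x axis, with the number tested). Genes with a sense cluster are at 44.9% higher and 29.98% lower, all genes at 33.3% and 33.5%.

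Of 84 textbook microRNA targets that were tested 17, 20.2%, had a 3' UTR cluster in an AGO2 list, beside 6.03% of all genes tested. The other gene lists described below were also above 6.03%. They ranged from 10% for deadenylation and decay to 16% for the microRNA pathway and 17.95% for growth factor and RAS signalling. These shares were not adjusted for mRNA reads or UTR length. Of the 17 textbook targets, 12 had a sense cluster, 9 were higher with CsA, 6 lower and 2 passed neither way. In the whole list 46 of 84 were higher and 23 lower, beside 33.3% and 33.5% of all genes tested. CDKN1B was at 55.8, 60.8, 55.3 and 60.6 CPM in vehicle and 52.9, 47.8, 42.7 and 44.4 CPM with CsA. The groups did not overlap, and CDKN1B fell by 0.30 ± 0.08 on the log2 scale (SE, n = 4; adjusted p = 8.99e-04, edgeR). CDK6 fell by 0.17 ± 0.07 (adjusted p = 0.0211) from 121, 106, 114 and 122 CPM to 102, 103, 111 and 96.2 CPM, and its groups overlapped. CDK6 did not pass with DESeq2 (adjusted p = 0.0691), nor without vehicle replicate 1 or 4 or CsA replicate 1, 2 or 4 (adjusted p = 0.0519 to 0.0884).

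Both of these genes act on entry into the cell cycle. BACH1, a haem-binding repressor of antioxidant genes, went from 30.1, 26.2, 27.5 and 27.5 CPM to 55.0, 58.2, 54.2 and 59.7 CPM, a rise of 1.02 ± 0.09 (adjusted p = 7.74e-16). IRS2, an adaptor of the insulin receptor, went from 136, 139, 136 and 141 CPM to 267, 275, 295 and 333 CPM, a rise of 1.08 ± 0.06 (adjusted p = 1.92e-22). Its CsA cluster was sense and its vehicle cluster antisense. HIPK3, a nuclear protein kinase, rose by 0.72 ± 0.11 (adjusted p = 3.77e-08), from 20.8, 20.9, 16.7 and 20.3 CPM to 31.4, 29.5, 39.7 and 30.1 CPM.

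FOXO1, a transcription factor restrained by insulin signalling, was at 0.845 to 1.65 CPM in vehicle and was below the filter. Of other list members with a sense cluster, IGF1R, the receptor of insulin-like growth factor, fell by 0.61 ± 0.07 (adjusted p = 4.71e-12). NRAS rose by 0.40 ± 0.08 (adjusted p = 1.43e-05) and the apoptosis inhibitor BCL2 by 1.22 ± 0.24 (adjusted p = 1.34e-05). RHOB, a small GTPase, fell by 0.53 ± 0.08 (adjusted p = 1.80e-07). MCL1, another inhibitor of apoptosis, had a vehicle cluster with a miR-27 match followed by an A, attttggcACTGTGAaacccctgctggaaa, in a gene whose strand was not matched, and rose by 0.22 ± 0.06 (adjusted p = 6.32e-04).

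SIK1, a salt-inducible kinase, had the largest rise among the genes with a sense cluster and a printed site. It was at 251, 237, 227 and 230.2 CPM in vehicle and 653, 667, 623.5 and 723 CPM with CsA. The rise was 1.49 ± 0.06 (adjusted p = 4.66e-30), and the gene had 1 sense cluster in the vehicle list and 2 in the CsA list, none of them overlapping. SFXN1, a mitochondrial serine carrier, rose by 0.42 ± 0.08 (adjusted p = 9.64e-06) and DNAJA2, a co-chaperone of HSP70, by 0.67 ± 0.08 (adjusted p = 2.48e-11). SRSF10, a splicing regulator, fell by 0.36 ± 0.07 (adjusted p = 6.32e-06), from 123, 119.5, 109 and 109.9 CPM to 81.0, 94.0, 97.3 and 89.0 CPM.

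Counting all families, 26 genes with a sense cluster and a 7-base match were tested, of which 13 were higher with CsA and 9 lower, where 33.3% and 33.5% of all genes were. The smaller rise of PTPN1, a tyrosine phosphatase of insulin signalling, was 0.17 ± 0.06 (adjusted p = 0.0123), and with upper-quartile scaling it did not pass (adjusted p = 0.181), nor did it without CsA replicate 1 (adjusted p = 0.0527).

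**Figure D5:**
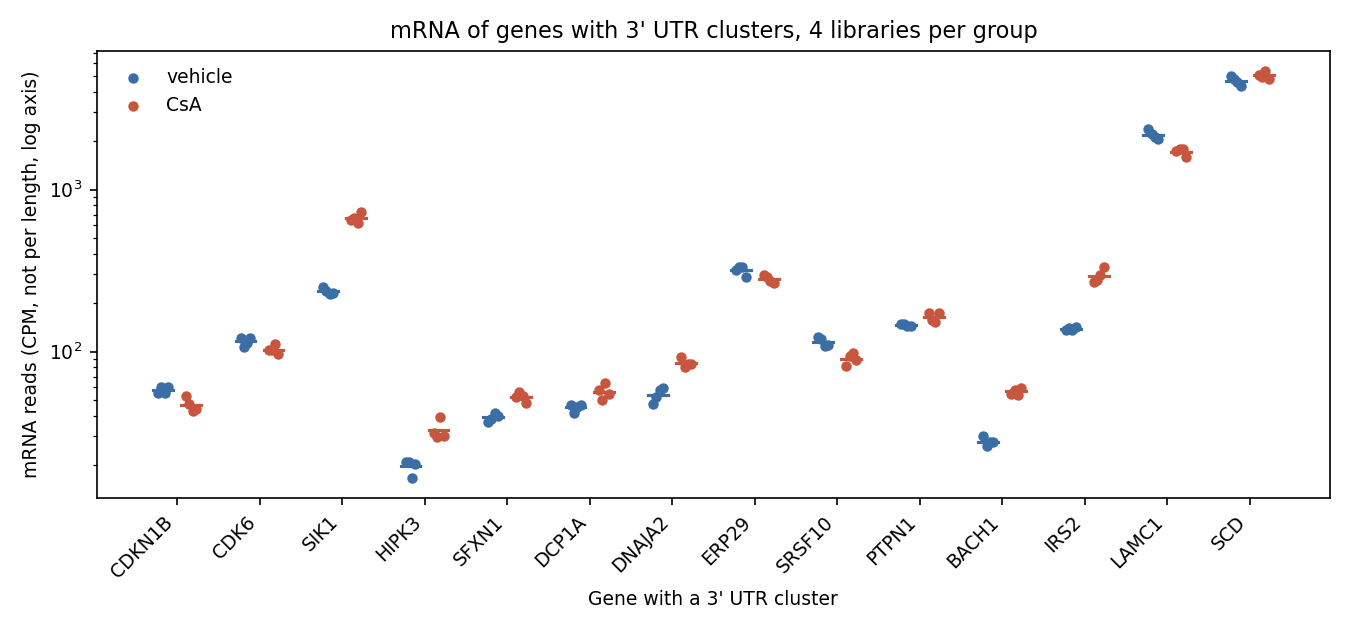
mRNA reads of 14 genes with 3' UTR clusters (CPM on a log axis, y axis; genes on the x axis), with 1 point per library and a bar at each group's mean; values compare within a gene. All 4 CsA libraries lie above the vehicle libraries for SIK1, BACH1 and IRS2, and the groups overlap for CDK6, ERP29 and SCD.

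Members of the silencing machinery were among the clustered genes. Of 25 genes of the microRNA pathway tested 4 had a 3' UTR cluster in an AGO2 list, each in sense. In the whole list 9 of the 25 were higher and 6 lower, beside 33.3% and 33.5% of all genes tested. DROSHA, which cuts primary microRNA transcripts, had overlapping clusters in both AGO2 lists and was at 67.8, 65.9, 65.1 and 62.6 CPM in vehicle and 67.5, 68.7, 74.6 and 68.4 CPM with CsA, with a log2 fold change of 0.09 ± 0.07 that did not pass (adjusted p = 0.258). TNRC6A and TNRC6B encode GW182 proteins that bind Argonaute. TNRC6B rose by 0.27 ± 0.07 (adjusted p = 0.00111), and TNRC6A had a log2 fold change of 0.05 ± 0.07 (adjusted p = 0.511). ADAR, the RNA-editing deaminase, rose by 0.17 ± 0.06 (adjusted p = 0.00849).

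Of 30 genes of deadenylation and decay 3 had a cluster, all in sense, and all 3 were higher with CsA, as were 15 of the 30. Over all genes tested 33.3% were higher and 33.5% lower. DCP1A, a decapping cofactor, had a cluster in each AGO2 list, at different positions of its 3' UTR. It rose by 0.33 ± 0.08 (adjusted p = 4.14e-04), from 46.9, 41.7, 45.2 and 47.1 CPM to 57.6, 50.4, 63.8 and 54.3 CPM, with no overlap. The exonuclease XRN1 rose by 0.50 ± 0.08 (adjusted p = 6.11e-07) and the deadenylase CNOT6 by 0.25 ± 0.10 (adjusted p = 0.0233). Of 28 proteins that bind 3' UTRs 4 had a cluster, and CELF1 rose by 0.66 ± 0.06 (adjusted p = 2.88e-14) and ELAVL1, an AU-element binding protein, by 0.36 ± 0.07 (adjusted p = 5.29e-06). MSI2 and PTBP1 had log2 fold changes of -0.18 (adjusted p = 0.0714) and -0.11 (adjusted p = 0.105). In the whole list 17 of 28 were higher and 4 lower.

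Among genes of TGF-beta signalling and matrix 6 of 39 tested had a cluster. In the whole list 9 of the 39 were higher and 22 lower, beside 33.3% and 33.5% of all genes tested. Of the 6, 2 were higher, 1 was lower, and TGFBR1, SKI and CYR61 did not pass (adjusted p = 0.962, 0.283 and 0.347). SMURF2 rose by 0.62 ± 0.10 (adjusted p = 5.88e-07), from 22.1, 21.7, 24.3 and 21.4 CPM to 33.0, 39.2, 27.5 and 38.3 CPM. INHBA rose by 1.02 ± 0.18 (adjusted p = 1.57e-06), from 6.37, 4.77, 4.65 and 4.96 CPM to 9.64, 13.4, 10.3 and 9.69 CPM. LAMC1, a laminin chain of the basement membrane, fell by 0.35 ± 0.06 (adjusted p = 7.67e-07). It had sense clusters in both AGO2 lists at the same place, chr1:183112352-183112371 in the vehicle list, at the 67.3rd percentile of scores there and the 93.8th in the CsA list; the vehicle cluster shared a 14-base stretch with 3 other places.

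In growth factor and RAS signalling 7 of 39 tested genes had a cluster in an AGO2 list, 4 higher and 2 lower, beside 18 higher and 9 lower in the whole list. DUSP5 rose by 1.81 ± 0.06 (adjusted p = 8.81e-33). In the cell cycle list it was 5 of 32. Of these 4 were lower and 1 did not pass, and in the whole list 17 of 32 were lower and 7 higher. For both lists the shares over all genes tested were 33.3% higher and 33.5% lower. CCNB1, the mitotic cyclin, fell by 0.85 ± 0.08 (adjusted p = 9.08e-14).

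Genes with a cluster in all 3 lists numbered 64, and 46 of them were tested, with 18 higher (39.1%) and 15 lower (32.6%), beside 33.3% and 33.5% of all genes. Among those with a mean of at least 50 mRNA counts and no overlap between the groups, SLC7A5, an amino acid transporter, had the largest rise, by 1.03 ± 0.07 (adjusted p = 1.40e-20), from 165, 169, 175 and 137 CPM to 368, 328.5, 295 and 327 CPM. Its 3 clusters were sense and lay at 3 different places of the UTR. MRAS, a RAS-related GTPase, had a sense cluster at chr3:138124168-138124184 in the vehicle list that recurred in both others, and rose by 0.57 ± 0.08 (adjusted p = 2.14e-08). ELOVL5, an elongase of polyunsaturated fatty acids, had a sense cluster at the same place in all 3 lists, chr6:53133140-53133157 in the vehicle list. It fell by 0.90 ± 0.06 (adjusted p = 2.30e-20), from 468, 430.1, 413 and 409 CPM to 232, 231, 236 and 221 CPM. RAB15, a small GTPase of endosomal recycling, fell by 1.15 ± 0.12 (adjusted p = 6.49e-13), with a gene strand that was not matched.

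The other genes named by this rule were split between strands. STK24, a serine/threonine kinase, rose by 0.67 ± 0.07 and its sense cluster held a miR-221/222 match without the A, but the cluster also shared a 14-base stretch with 8 other places of the vehicle list. MEGF6 fell by 0.60 ± 0.08 with a sense cluster. TLE3, PRDM10 and NUDC rose by 0.90 ± 0.09, 0.80 ± 0.13 and 0.58 ± 0.07 and had antisense clusters alone, as had IRAK3 and PTGFRN, which fell by 0.75 ± 0.10 and 0.56 ± 0.06. ZNF618, of unmatched strand, fell by 1.10 ± 0.13. Each of these passed the test and had groups that did not overlap.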

How the data were processed

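PAR-CLIP clusters, mRNA counts and miRNA counts of 21 HK-2 samples were used as deposited by the authors. The submitters' processing notes name hg19 and the tools Bowtie, TopHat, cutadapt, CASAVA 1.8.2, HTSeq and DESeq2, without roles; the cluster caller is not stated. The mRNA and miRNA tables hold raw read counts per gene or miRNA as the authors deposited them, and the authors' deposited fold changes were not used. The cluster lists give a peak score per cluster, deposited with no unit, and pool the libraries of a condition. Coordinates are hg19, counted from 1. In the all-Argonaute list the printed sequence had the length of its interval in 2692 of 19306 rows, so its sequences were not used.

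Counts were tested with edgeR 4.0.16 (filterByExpr, TMM, quasi-likelihood F test with group as the only term, Benjamini-Hochberg adjusted p under 0.05) in R 4.3.3. CPM uses TMM library sizes. The labels do not say whether replicates are separate cultures, and the p-values then reflect spread between samples that may be technical. In simulated counts of the mRNA comparison (12855 genes) 100 of 100 genes changed by 1 on the log2 scale and 65 of 100 changed by 0.5 were recovered. The simulation gave every gene the same variability beyond counting error and changed few genes, whereas 66.9% passed in the data. It therefore checks the procedure and does not measure how many real changes were found.

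Gene strand came from the RefSeq table of GRCh38.p14 by symbol, synonym or transcript. Clusters overlap when they share 1 base on the same strand. MicroRNA sequences are from RefSeq, and 2281 of 2586 names matched, with 97.6% of vehicle counts. Of 3' UTR genes, 695 of 708 (vehicle), 478 of 487 (CsA) and 189 of 194 (all Argonautes) matched an mRNA row.

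Named genes are, by rule, the 8 genes with the highest-scoring 3' UTR cluster in each list, the 5 with most vehicle clusters, members of the gene lists with clusters in both AGO2 lists (at most 12, 6 or 3 per list), the genes with clusters in all 3 lists that changed most without overlap (6 each way), and genes of shared clusters with a site of the 10 most counted families. Other genes, the family threshold, the 14-base criterion and the strand analysis were chosen after values were seen; the members and lists were chosen with earlier results of these data known. Alternatives were DESeq2 1.42.0, limma 3.58.1 voom, upper-quartile scaling, no filter, a replicate block, leaving out each library, and other score, length, overlap and site definitions.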

Additional observations from a re-analysis of the deposited data

Results flagged for a closer look

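For the named genes with a mean of at least 1 CPM in vehicle and for the 33 seed families, each group of 4 libraries was checked for a library far from the others, in 188 groups, of which chance marks about 5%; 10 were marked. FBLN1 mRNA was at 317 CPM in vehicle replicate 4 (others 367 to 376) and 167 CPM in CsA replicate 3 (others 176). MRAS was at 33.3 CPM in vehicle replicate 4 (others 36.8 to 37.3). DROSHA was at 74.6 CPM in CsA replicate 3 (others 67.5 to 68.7). TLE3 was at 23.2 CPM in vehicle replicate 3 (others 28.1 to 29.2) and 55.6 CPM in CsA replicate 4 (others 49.7 to 50.5). HIPK3 was at 16.7 CPM in vehicle replicate 3 (others 20.3 to 20.9). TNFAIP2 was at 606 CPM in vehicle replicate 4 (others 663 to 669). Of the miRNA families, let-7 was at 81099 CPM in vehicle replicate 1 (others 88310 to 89574) and miR-200a at 4335 CPM in vehicle replicate 4 (others 3771 to 3812).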

How the results depend on the processing

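The number of genes called with a 3' UTR cluster was within 1.5 times its value under DESeq2, voom, upper-quartile scaling, no filter, the replicate block and with each library left out. By construction it was smaller for genes with a cluster in the upper 50% of scores (265 called, 156 higher, 109 lower, of 366) and for genes with a sense cluster (342, 205 and 137, of 457). The percentage of sense-cluster genes called higher was 38.7% with upper-quartile scaling (28.4% of all genes) and 39.3% with DESeq2 (25.3% of all genes). The miRNA calls rose from 53 to 92 (43 higher, 49 lower) with the replicate block, and ranged from 29 to 58 with a library left out (14 to 29 higher, 15 to 29 lower; lowest without vehicle replicate 3). Same-numbered mRNA samples correlated at -0.0841 to 0.033 and miRNA samples at -0.0599 to 0.338 in their deviations, so the numbers were not taken to pair samples; mRNA calls were 8486 with the block. The cause of these changes was not tested.

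Recurrence of 3' UTR clusters was 28.4% (vehicle) and 48.4% (CsA) in the upper 50% of scores, 29.9% and 43.5% by gene symbol, and 15.4% and 23.0% without clusters that share a 14-base stretch. Seed matches rose to 17.1% and 16.8% with 6-base sites and fell to 2.01% and 1.13% with 8-base sites; they were 1.60% and 1.32% for the 10 most counted families and 7.35% (vehicle) for the top 60. In the CsA list the upper 50% by score held 1.19% of clusters in 3' UTRs, with 61.6% in sense. Genes with a cluster had a median of 46.9 CPM, 48.3 CPM in the upper 50% of scores and 36.9 CPM over all genes with any count (all genes tested 29.6 CPM, all with any count 14.4 CPM). ADRB1, never called, changed sign with upper-quartile scaling (-0.0295) and without CsA replicate 3 (-0.0612; range with a library left out -0.0612 to 0.123). Among 754 alternative values for 58 named genes, 730 kept direction and call, 12 lost the call (CMBL, CDK6, PTPN1) and 10 gained it (ZYG11A, SCD, GTF2E1, PDPR, RAPGEF2, RNF44). Of 91 values for 7 miRNAs 15 lost the call (miR-99b-5p, miR-191-5p). The 14-base, orientation and family alternatives were chosen after seeing the data.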
